A study of Mus musculus with 16 samples.

Results

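Csmd1, Csmd2 and Csmd3 are the 3 mouse genes for the CSMD proteins, and they were followed here through the peaks that RNA immunoprecipitation (RIP) of THOC5 gave in primary mouse vascular smooth muscle cells. They were chosen by name after Csmd1 had been seen to hold many peaks in most lists and few in those of cells overexpressing GFP. The numbers of peaks that show this are therefore a description, and the difference from the GFP lists carries no test. A peak belonged to a gene if the deposited annotation placed its centre in an exon, intron, UTR, non-coding exon or transcription end of one of the gene's RefSeq transcripts. Of 28998 peaks in the 8 lists, 156 lay inside Csmd1, and none lay inside Csmd2 or Csmd3. Csmd1 was 1 of 4051 genes with a peak, and no peak in a list does not show that a transcript is unbound.

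The 8 lists come from 4 conditions with 2 lists each. THOC5 was immunoprecipitated in all of them, to ask which transcripts it binds in growth medium and in osteogenic medium, which drives these cells towards a bone-like state. THOC5 OE cells (genotype recorded as THOC5 overexpression) were in osteogenic medium, and GFP OE cells overexpressed GFP in the same medium. Pi cells were kept in osteogenic medium and Ctrl cells in growth medium, both without a transgene named in the labels. The recorded genotype is WT in GFP OE, Pi and Ctrl. All samples are primary vascular smooth muscle cells of mouse. The labels do not say how the transgenes were delivered, or whether the 2 replicates of a condition are separate cultures, so p-values over lists reflect the spread of these samples alone, which may be technical.

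THOC5 belongs to the THO complex, a protein assembly that packages new mRNA and hands it to the export machinery. CSMD proteins are very large membrane proteins whose extracellular part is a long array of CUB and Sushi domains. Sushi domains are the building blocks of many complement regulators, and CSMD1 has been described as a regulator of complement. The family is best known from the brain, and CSMD1 also as a gene that is often deleted in human tumours. All 3 genes are long: RefSeq (GRCm38.p6, the mm10 assembly) places Csmd1 at chr8:15892538-17535385 (1.64 Mb), Csmd2 at chr4:127986505-128567660 (0.581 Mb) and Csmd3 at chr15:47580638-48792558 (1.21 Mb).

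Lists held 2572 to 4795 peaks, and all peaks of a list had 1 width, between 415 and 553 bp. Each peak carries the score of the authors' caller, on a scale that no source used here gives, and the lowest score of a list was 6.72 and 6.31 for THOC5 OE replicates 1 and 2, 10.2 and 12.6 for GFP OE, 20.5 and 14.9 for Pi, and 29 and 15.9 for Ctrl. Read depth is unknown. A peak in any list was found for 18% of protein-coding genes. Among cell type markers, 5 of 9 vascular smooth muscle genes had a peak, as did 0 of 8 neuron and glia genes, 0 of 3 endothelial genes, 1 of 3 fibroblast genes and 0 of 2 leukocyte genes, and lists this short show little against that share. Mylk, the myosin light chain kinase of smooth muscle, led them with 64 peaks over all lists, Acta2 had 3, Smtn 2, and Tagln and Lmod1 1 each, while the defining smooth muscle markers Myh11, Cnn1, Des and Myocd had none.

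Csmd1 was among the genes with most peaks in every condition but GFP OE. THOC5 OE replicates 1 and 2 held 28 and 27 Csmd1 peaks, and GFP OE replicates 1 and 2 held 4 and 0. Pi replicates 1 and 2 held 19 and 28, and Ctrl replicates 1 and 2 held 19 and 31. By number of peaks Csmd1 ranked 5 and 3 among all genes in THOC5 OE, 3 and 3 in Pi, and 6 and 2 in Ctrl, but 166 in GFP OE replicate 1. The numbers of Csmd1 peaks in the GFP OE lists lay below those of every other list, the pattern for which Csmd1 was chosen. How many other genes show this is not reported here. The numbers in the other 3 conditions overlapped with each other or lay within one another's range. In the order of mean peaks, THOC5 OE (27.5 ± 0.707), Ctrl (25 ± 8.49) and Pi (23.5 ± 6.36) did not differ from their neighbours beyond the spread of their lists, and GFP OE (2 ± 2.83; SD, n = 2 each) came last. In bulk samples fewer cells with the transcript and less of it per cell cannot be told apart, and expression was not analysed here, so peaks are not corrected for the level of Csmd1 RNA.

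**Figure D1:**
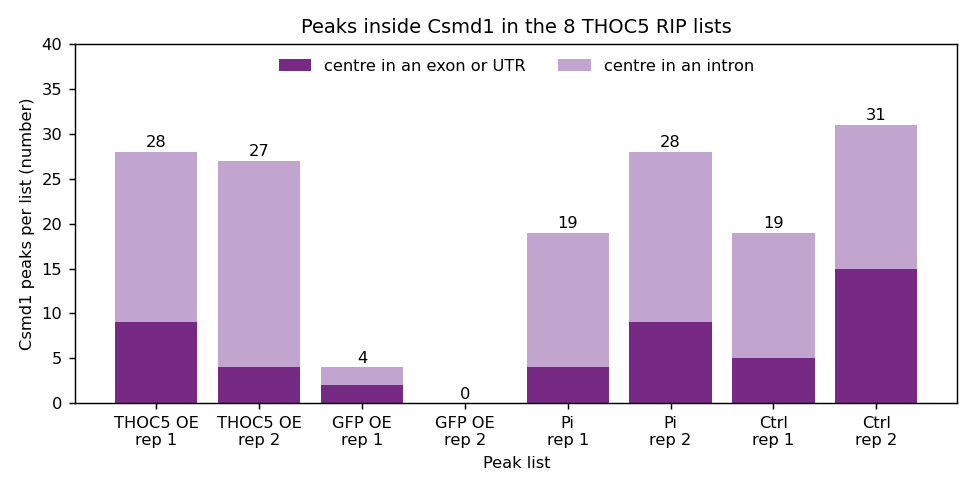
Number of peaks inside Csmd1 (vertical axis) in each of the 8 lists (horizontal axis, 2 replicates per condition), divided into peaks centred in an exon or UTR and peaks centred in an intron. The GFP OE lists hold 4 and 0 peaks, and the 6 other lists hold 19 to 31.

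The difference between replicates of Ctrl and of Pi went along with the length of the lists. Per 1000 peaks of its list, Csmd1 held 6.22 ± 0.215 in THOC5 OE, 0.539 ± 0.762 in GFP OE, 7.25 ± 0.180 in Pi and 6.88 ± 0.590 in Ctrl (SD, n = 2 each). Between osteogenic and growth medium the lists overlapped, and the mean was 1.5 peaks lower in Pi than in Ctrl (two-sided exact permutation p = 1, adjusted p = 1 over 5 tests). With 2 lists against 2, the smallest p this test allows is 0.333. The sign of this difference rested on single lists, since it was 3 without Pi replicate 1 and 4.5 without Ctrl replicate 2. THOC5 OE exceeded Pi by 4 peaks (two-sided exact permutation p = 1, adjusted p = 1), and this difference was -0.5 without Pi replicate 1. Both comparisons use the same Pi lists. With 2 lists against 2, neither could have reached the threshold of 0.05, and Csmd1 had been chosen on these same counts. No conclusion is therefore drawn from either p, although both were counted among the 5 tests of the adjustment.

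The Csmd1 transcript of the annotation has 70 exons and 69 introns, and its exon numbers rise as the coordinates fall. The peaks were gathered in its downstream part. Joined across lists wherever they overlapped by at least 1 base, the 156 peaks made 47 sites, of which 39 lay in the last 466 kb, from the end of the outer intron 9 site to the 3' end, and 8 in the 1177 kb before it. That limit was set after the positions had been seen. These are 8.37 and 0.680 sites per 100 kb. The downstream stretch is 28.4% of the gene's length. Because the limit lies in intron 9, that stretch holds most of the 70 exons, and the densities are not corrected for exon number.

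**Figure D2:**
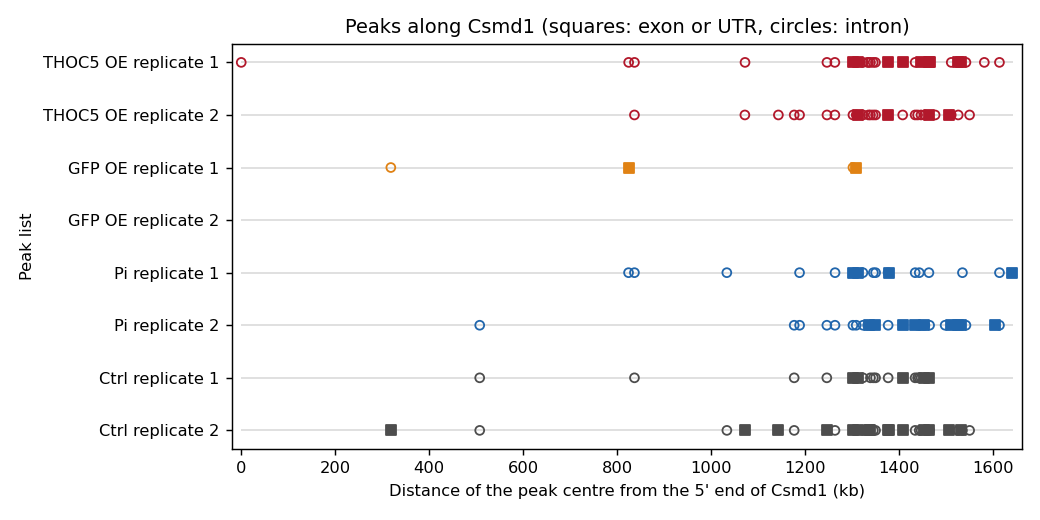
Position of each Csmd1 peak as the distance of its centre from the 5' end of the gene in kb (horizontal axis) for each list (rows), with filled squares for exon or UTR peaks and open circles for intron peaks. In the 6 lists of THOC5 OE, Pi and Ctrl most peaks crowd into the last 466 kb. The 4 peaks of GFP OE replicate 1 lie at 1309 and 1302 kb, within that stretch, and at 825 and 319 kb, upstream of it.

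Over all lists 48 Csmd1 peaks were centred in an exon or UTR and 108 in an intron, which is 30.8% exonic. THOC5 OE replicates 1 and 2 had 9 of 28 and 4 of 27 exonic peaks, and GFP OE replicate 1 had 2 of 4. Pi replicates 1 and 2 had 4 of 19 and 9 of 28, and Ctrl replicates 1 and 2 had 5 of 19 and 15 of 31. Exonic peaks were thus fewer than intronic ones in every list of THOC5 OE, Pi and Ctrl, and came closest to equal numbers in Ctrl replicate 2. The exonic share of Csmd1 lay below that of all peaks inside genes of the same list in 5 of these 6 lists. The mean difference was -13.1 percentage points (SD 9.96, n = 6 lists, two-sided exact sign-flip permutation p = 0.0625, adjusted p = 0.104 over 5 tests), which did not pass 0.05. Counting coding exons alone, the difference shrank to -3.65 points (two-sided exact sign-flip permutation p = 0.531).

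These labels follow the centre of a peak, and a shift of the centre changed them. At 17 of the 47 sites the same site was called exon in one list and intron in another, at 8 it was called exon alone and at 22 intron alone. At 3 of those 22, different lists named consecutive introns, so that the exon between them lies between the centres. In all, 28 of 47 sites held an exon by one of these signs, and so did 16 of the 19 sites found in at least 4 of the 6 THOC5 OE, Pi and Ctrl lists. The centres of a site found in more than 1 list lay within a median of 124 bp of each other. A single peak lay in the 3' UTR (Pi replicate 1, chr8:15893566-15894119, exon 70), none in the promoter, and 7 of 156 were centred on a repeat.

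The outermost upstream sites were each seen in at most 3 lists. A peak in intron 1 at chr8:17534636-17535109, beside the 5' end and with CpG as its detailed annotation, was in THOC5 OE replicate 1 alone. The site at exon 2 (chr8:17216338-17217023) was in GFP OE replicate 1 and Ctrl replicate 2. An intron 2 site at chr8:17027210-17027668 was in Pi replicate 2 and both Ctrl lists. In the downstream part, Ctrl replicate 1 had no peak beyond exon 34, whereas both THOC5 OE lists, both Pi lists and Ctrl replicate 2 did.

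Replicates shared most of their Csmd1 sites in THOC5 OE. There 20 sites were common, 71.4% of those in replicate 1 and 74.1% of those in replicate 2. In Pi 11 were common (57.9% and 39.3%), and in Ctrl 17 (89.5% and 54.8%). Taking either list of a condition, THOC5 OE and Pi shared 25 sites (71.4% of THOC5 OE sites, 69.4% of Pi sites), and Pi and Ctrl shared 26 (72.2% of Pi sites, 78.8% of Ctrl sites). Only 8 of the 47 sites were found in a single list.

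At 7 sites all 6 lists of THOC5 OE, Pi and Ctrl had a peak. They lay between exon 14 and exon 27, and each held an exon or lay astride one by the labels. Both GFP OE lists lacked 5 of the 7 (71.4%). Over the whole series 424 sites were held by all 6 of those lists, and both GFP OE lists lacked 18 of them, or 4.25%; outside Csmd1 it was 13 of 417. These 13 lay in 13 different genes, so Csmd1 was the gene with the most such sites. The shares are not matched for score. Among the 424 sites, those of Csmd1 had a median percentile of 1.18 in both THOC5 OE lists. In Pi it was 11.6 and 15.9, and in Ctrl 19.3 and 24.3. Whether other shared sites scoring as low were lacking as often was not tested. The genes were chosen for this pattern, and the shares are given for description.

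The 5 sites missing from GFP OE are given with their scores, which order peaks within a list and are set side by side only to show each list's own values. At exon 27 (chr8:16100488-16101311) the scores were 18.4 and 19.5 in THOC5 OE, 37.9 and 50.4 in Pi, and 56.6 and 53.8 in Ctrl. At exon 24 (chr8:16157969-16158745) they were 21.6 and 22.7 in THOC5 OE, 53.7 and 49.2 in Pi, and 66.8 and 81.9 in Ctrl. At exon 23 (chr8:16184739-16185629) THOC5 OE had 18.4 in both lists, Pi 50.6 and 75.5, and Ctrl 55.9 and 61.4. By percentile within the list, both THOC5 OE lists stood below all Pi and Ctrl lists at exons 24 and 23, and at exon 27 they overlapped with Pi. The site astride introns 21 and 22 (chr8:16189461-16190519) had 24 and 21.5 in THOC5 OE, 37.9 and 62.9 in Pi, and 58.8 and 64.4 in Ctrl. The site astride introns 17 and 18 (chr8:16211397-16212307) had 19.9 and 23.5 in THOC5 OE, 72.7 and 54.9 in Pi, and 95.1 and 84.2 in Ctrl. By percentile, THOC5 OE stood below all Pi and Ctrl lists at introns 17 and 18 and overlapped with Pi at introns 21 and 22. How many shared sites of other genes have THOC5 OE below all Pi and Ctrl lists is not reported here. Within its list, exon 27 stood at percentiles 18.2 and 19.1 in THOC5 OE, 18.2 and 47 in Pi, and 27.9 and 48.1 in Ctrl. The site astride introns 21 and 22 stood at percentiles 25.9 and 21.9 in THOC5 OE, 18.2 and 56.9 in Pi, and 30.3 and 56.3 in Ctrl.

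The 2 remaining sites kept a peak in GFP OE replicate 1. One was at exon 14 (chr8:16232610-16233550), with scores of 47.3 and 41.6 in THOC5 OE, 21.7 in GFP OE replicate 1, 107.4 and 109.9 in Pi, and 112.5 and 155.4 in Ctrl. It was the highest scoring Csmd1 site of its list in THOC5 OE replicate 2, GFP OE replicate 1, both Pi lists and Ctrl replicate 2. The other was at exon 16 (chr8:16225939-16226622), with 19.3 and 19.8 in THOC5 OE, 11 in GFP OE replicate 1, 83.7 and 59.5 in Pi, and 84.9 and 85.7 in Ctrl. GFP OE replicate 1 had its other 2 Csmd1 peaks at exon 4 (chr8:16710259-16711011, score 15) and at the exon 2 site named above (15.8). Its 4 Csmd1 peaks stood at percentiles 1.67 to 17.8 of the list.

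**Figure D3:**
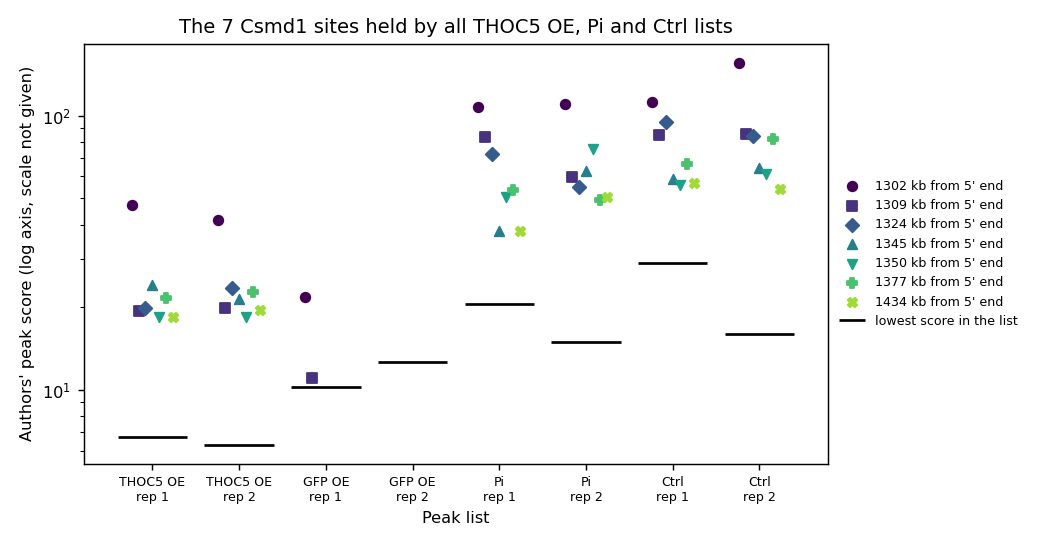
Authors' peak score on a log axis (vertical, scale not given) at the 7 Csmd1 sites held by all THOC5 OE, Pi and Ctrl lists, by list (horizontal), with a horizontal bar at the lowest score of each list. The sites score from 18.4 to 47.3 in THOC5 OE, have 2 points in GFP OE replicate 1 and none in replicate 2, and score from 37.9 upwards in Pi and from 53.8 upwards in Ctrl.

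With the requirement eased to at least 4 of the 6 lists, Csmd1 had 19 sites and both GFP OE lists lacked 17 of them (89.5%). By the same measure both GFP OE lists lacked 16.6% of the 1707 such sites of the series, again without matching for score. Of the Csmd1 sites, 5 were in exactly 5 lists: exon 11 (chr8:16288232-16289049), introns 11 and 12 (chr8:16271016-16271946), exon 17 (chr8:16223095-16223675), exon 26 (chr8:16126902-16127679) and exon 34 (chr8:16071111-16071834). A site in intron 4 (chr8:16697906-16698467), upstream of the others, was in 4. At intron 4 the scores were 42.4 and 39 in THOC5 OE, 86.9 in Pi replicate 1 and 122 in Ctrl replicate 1. For Ctrl replicate 1 that was the highest scoring Csmd1 peak.

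Csmd1 peaks were weak ones within the THOC5 OE lists. Their median percentile by score was 18.2 and 17.1 in THOC5 OE replicates 1 and 2, 36.8 and 37.3 in Pi, and 27.9 and 48.1 in Ctrl. No Csmd1 peak of either THOC5 OE list reached the median score of its list, against 6 and 8 in Pi and 6 and 13 in Ctrl. Exonic Csmd1 peaks stood below the exonic peaks of other genes in 6 of 6 lists, by a mean of 24.9 percentiles (difference -24.9, SD 15.9, n = 6 lists, two-sided exact sign-flip permutation p = 0.0312, the smallest possible). Adjusted over 5 tests this p was 0.104, which did not pass 0.05. Intronic Csmd1 peaks stood below other intronic peaks in 5 of 6 lists (mean difference -15.4, SD 11.6, two-sided exact permutation p = 0.0625, adjusted p = 0.104), the exception being Ctrl replicate 2.

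**Figure D4:**
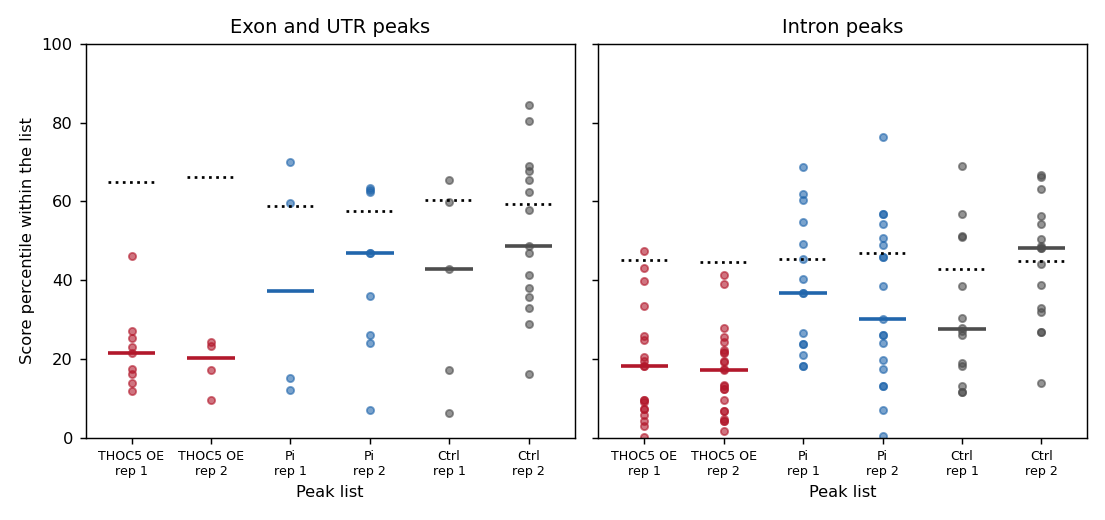
Score percentile within the list (vertical axis) of each Csmd1 peak in the lists of THOC5 OE, Pi and Ctrl (horizontal axis), for exon and UTR peaks (left) and intron peaks (right). Solid bars are Csmd1 medians and dotted bars the medians of other genes' peaks of that class; exonic medians of Csmd1 lie between 20.2 and 48.8, and those of other genes between 57.6 and 66.2.

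The number of Csmd1 peaks in THOC5 OE therefore depends on how far down the list peaks are counted. With every list reduced to its 2572 highest scoring peaks, the length of the shortest list, the THOC5 OE lists kept 2 and 1 Csmd1 peaks, GFP OE 0 and 0, Pi 19 and 15, and Ctrl 19 and 18. Counted this way THOC5 OE lay close to GFP OE, and both lay below Pi and Ctrl without overlap. How many other genes separate this way at equal length is not reported here. With scores of at least 29, the highest of the lists' lowest scores, THOC5 OE kept 5 and 2, GFP OE 0 and 0, Pi 19 and 22, and Ctrl 19 and 29. This floor was chosen after the scores had been seen and assumes that scores can be set on 1 scale, which no source says. Against the higher floor of the GFP OE lists, 12.6, THOC5 OE kept 22 and 21 peaks and GFP OE 3 and 0.

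The order of the 424 shared sites within each list, which does not depend on list length, also placed Csmd1 low in THOC5 OE. The 7 Csmd1 sites had a median percentile of 1.18 in both THOC5 OE lists, 11.6 and 15.9 in Pi, and 19.3 and 24.3 in Ctrl. Among the 37 genes with at least 3 such sites, Csmd1 had the second largest shortfall of THOC5 OE against Pi, at -12.6 percentiles. Mylk came first with 3 sites, at 16.7 in THOC5 OE (mean of 2 lists), 39.3 in Pi and 53.6 in Ctrl. Within a list, scores fell along the transcript: Spearman's rho between score and distance from the 5' end was -0.540 and -0.217 in THOC5 OE (28 and 27 peaks), -0.608 and -0.509 in Pi (19 and 28), and -0.638 and -0.509 in Ctrl (19 and 31). These peaks share a transcript and a library, and rho is given as a description.

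Set against all genes, the small number of peaks in GFP OE left Csmd1 near the end of the range. Of the 189 genes with at least 10 peaks in the THOC5 OE lists together, 3 (1.59%) had under 0.1 GFP OE peaks per THOC5 OE peak, and the median was 0.733. With 55 THOC5 OE peaks and 4 GFP OE peaks, Csmd1 had a ratio of 0.0727 and stood at rank 3. The 4 other genes among the lowest 5 were the sorting nexin gene Snx29 (13 peaks in THOC5 OE, 0 in GFP OE), the neuronal adhesion gene Dscam (11 and 0), the centrosomal gene Cep112 (14 and 2) and the pseudokinase gene Ulk4 (17 and 3). Those 4 had 0 to 3 peaks in Pi and 0 to 3 in Ctrl, against 47 and 50 for Csmd1. Low numbers in GFP OE went with low numbers in Pi and Ctrl for them, and with high numbers for Csmd1.

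**Figure D5:**
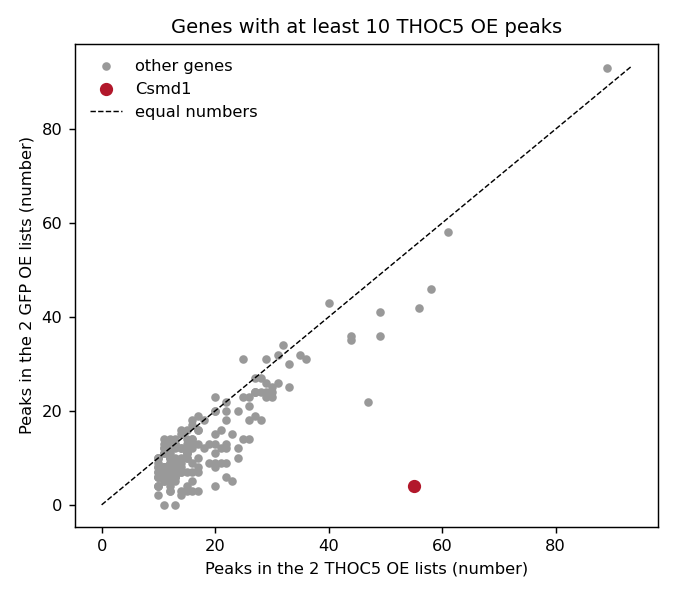
Peaks in the 2 THOC5 OE lists (horizontal axis) and in the 2 GFP OE lists (vertical axis) for the 189 genes with at least 10 THOC5 OE peaks, 1 point per gene, with a dashed line at equal numbers. Csmd1, with 55 and 4 peaks, lies far below the other genes of its THOC5 OE number.

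The rest of chromosome 8 was not short of peaks in GFP OE. Outside Csmd1 THOC5 OE had 329 peaks there and GFP OE 228, a ratio of GFP OE to THOC5 OE of 0.693, and peaks in all other genes of the genome had a ratio of 0.720. Of 14 neighbours of Csmd1, 3 had a peak (18% of protein-coding genes did). Mcph1, a gene of chromosome condensation and brain size on the 5' side, had 4 and 2 peaks in THOC5 OE lists, 2 and 4 in GFP OE, 0 and 2 in Pi, and 0 and 1 in Ctrl. Arhgef10 had 3 peaks, none in THOC5 OE or GFP OE, and Cul4a, a ubiquitin ligase scaffold, had 5, of which 1 in GFP OE.

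Length alone did not go with this number of peaks. Of 59 protein-coding genes of at least 1 Mb, 13 (22%) had a peak in any list, and Csmd1 had the most. Anks1b (1.10 Mb) had 28 peaks in THOC5 OE, 24 in GFP OE, 6 in Pi and 4 in Ctrl. Magi2 (1.49 Mb), a synaptic scaffold gene, had 21, 9, 5 and 6 in the same order of conditions. Ptprd (2.27 Mb), a receptor phosphatase gene, had 13, 6, 1 and 0, and Pard3b (1.00 Mb), related to a cell polarity gene, had 15, 4, 1 and 0. All 4 had more peaks in GFP OE than in Pi, whereas Csmd1 had fewer. Robo1 (1.02 Mb), with only 5, 0, 1 and 1 peaks in the same order, also had fewer. The 12 long genes other than Csmd1 that had a peak summed to 90 THOC5 OE peaks, 52 GFP OE peaks, 16 Pi peaks and 16 Ctrl peaks. Csmd3, also over 1 Mb, was among the 46 without any.

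Other genes with CUB or Sushi domains, or of the complement system, had a peak at a share near that of all protein-coding genes. Of 45 such genes 6 had a peak in any list (13.3%, against 18% of protein-coding genes), with a median of 0 peaks. Svep1, which encodes a large extracellular protein with many Sushi domains, had 5 and 4 peaks in THOC5 OE lists, 0 and 5 in GFP OE, 4 and 3 in Pi, and 3 and 4 in Ctrl. Bmp1, a CUB domain protease that trims procollagen, had 7 and 6 THOC5 OE peaks, 7 and 6 in GFP OE, 4 and 4 in Pi, and 5 and 5 in Ctrl. Neither had numbers in GFP OE as far from the other conditions as Csmd1. The complement inhibitor gene Cd55 had 3 peaks in all, Cr1l 2 and the proteoglycan gene Vcan 8.

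By Pearson correlation of peaks per list over the 8 lists, the genes most like Csmd1 among 699 with at least 10 peaks included the histone demethylase gene Kdm5c (r = 0.851), Dock1 (0.847), the chromatin remodelling gene Smarcc2 (0.847) and Tln2 (0.845). These correlations share the 8 lists and their lengths and are given as a description. Tln2, a talin gene, had 12 and 10 peaks in THOC5 OE lists, 3 and 3 in GFP OE, 4 and 10 in Pi, and 3 and 12 in Ctrl. Dock1, a regulator of cell migration, had 12 and 14, 9 and 5, 11 and 12, and 9 and 11 in the same order of conditions. Neither gene came near 0 in GFP OE.

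The name that the deposited files give to nearly all these peaks is not Csmd1. The nearest-gene column named 150 of the 156 peaks (96.2%) for Mir3106, a microRNA gene inside Csmd1 at chr8:16168757-16168838, and 6 for Csmd1. No peak of any list overlapped Mir3106. C030002A05Rik, a second gene inside the Csmd1 span (chr8:17353634-17492395), had no peak over it either. By nearest gene, Csmd1 would hold 1 and 0 THOC5 OE peaks, 1 and 0 in GFP OE, 0 and 1 in Pi, and 1 and 2 in Ctrl.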

How the data were processed

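Peak lists of 8 RIP samples were used, and the 8 inputs are not analysed here. FastQC, Bowtie2, MACS2, SAMtools and mm10 are named without roles, per the submitters' processing notes. The file headers name annotatePeaks.pl (HOMER) with mm10 as the annotation step. Which caller made the peaks, and whether it used inputs, is not given in the sources. The only unit is the score per peak that the authors deposited, and it was ranked within lists. Lists were joined to samples by abbreviation and number in the file headers.

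Transcripts gave symbols through RefSeq for 28000 of 28032 peaks inside genes (99.9%). Sites were peaks of any list joined by 1 base. The joining was run on simulated lists with widely spaced sites, which does not check sites as close as some in Csmd1. Tests were exact permutations over lists, with Benjamini-Hochberg adjustment over 5 tests at 0.05 (Python 3.11.15, numpy 2.4.6, pandas 2.3.3). A list entered a share or percentile test with at least 5 Csmd1 peaks.

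Members, gene lists and tests were chosen with earlier results of these data known. Named genes were the members, the 5 most correlated genes (at least 10 peaks), the 5 lowest in GFP OE to THOC5 OE ratio, listed genes with a peak, and the 5 genes of at least 1 Mb with most peaks; some of these are not reported here. Alternatives were the nearest gene, median-score and equal-length lists, exons only, 50% overlap, at least 4 of 6 lists, mean for median, each list left out, a replicate block and, added later, score floors.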

Additional observations from a re-analysis of the deposited data

How the results depend on the processing

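The excess of THOC5 OE over GFP OE of 25.5 peaks was 23.5 to 27.5 with each list left out and 25.5 with lists paired by number (replicate block). It was 0 by nearest gene, 0 with scores at or above the list median, 1.5 with lists of equal length, 5.5 with exons and UTRs only, 3.5 with the common score floor and 20 with the GFP OE score floor (both floors chosen after seeing the data). THOC5 OE minus Pi (4 peaks; replicate block 4) turned to -7 at the list median, -15.5 with equal lengths and -17 with the common floor, was 0 by nearest gene and with exons only, and ranged from -0.5 to 8.5 with a list left out (-0.5 without Pi replicate 1). Pi minus Ctrl (-1.5; replicate block -1.5) ranged from -7.5 to 4.5 and turned positive without Pi replicate 1 (3) and without Ctrl replicate 2 (4.5). The 5 Csmd1 sites that both GFP OE lists lacked became 0 by nearest gene, 0 at the list median, 1 with equal lengths, 1 with the common floor, 3 with 50% overlap of both peaks and 17 with at least 4 of 6 lists, and were 5 to 7 with a list left out. The exon percentile difference ranged from -27.8 to -20.7 and the intron one from -19.1 to -12.9 with a list left out, where 5 lists allow no exact permutation p under 0.0625. The intron difference was -14.9 with means (exact permutation p = 0.0312). The exon share and percentile differences have no value by nearest gene. Other alternatives kept the direction and side of the threshold. Numbers did not pair the lists: over 4051 genes replicate differences correlated at 0.0715 (THOC5 OE with GFP OE), -0.0902 (THOC5 OE with Pi) and 0.0481 (Pi with Ctrl). Depth is unknown, and no peak does not mean no binding. Apart from the effect of fewer peaks or lists, the cause of these shifts was not tested.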
